A study of Saccharomyces cerevisiae with 24 samples.

Results

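Transfer RNA (tRNA) genes of Saccharomyces cerevisiae were described across 8 groups of RNA-seq samples from strains altered in Yhp1 and Yox1, homeodomain repressors of cell cycle genes. The members were all genes of the deposited tables whose name is a lower-case t, the letter of an amino acid and a bracketed anticodon, as in tE(UUC)K, and they numbered 299 of 7126 genes. Of these, 275 are nuclear and 24 are mitochondrial. The last letter of a nuclear name gives the chromosome and a digit numbers the copies on it. The rule uses names only and no measured value.

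RNA came from asynchronous cells in rich medium, with 3 biological replicates in each group and 24 samples in all. Every strain was MATa ura3Δ0 leu2Δ0 his3Δ0. All strains but yhp1Δ also carried met15Δ0, and yhp1Δ carried lys2Δ0 instead. The first set of 12 samples tested mutants that lack Cdk1 phosphorylation sites, and the second set of 12 tested gene deletions. In the first set, yhp1-13A carried the allele with a 13MYC tag and LEU2 as marker, and its YOX1 had no tag. The yox1-9A strain carried its allele with a 3V5 tag and KanMx, and its YHP1 had no tag and no LEU2. The yhp1-13A yox1-9A strain carried both marked alleles. In the deletion set, yhp1Δ was marked with LEU2, yox1Δ with KanMX, and yhp1Δ yox1Δ with LEU2 and NatMX. Each set had its own samples of the same wild type strain, YOX1-3V5-KanMx YHP1-13MYC-LEU2, here called WT_A in the phosphomutant set and WT_B in the deletion set. Each genotype was a single listed strain, and the wild type carried tags that the single mutants lacked on the other gene.

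A nuclear tRNA gene is transcribed by RNA polymerase III (Pol III) from promoter elements inside the gene, the A box and the B box. TFIIIC binds these boxes and places TFIIIB, which recruits the polymerase. The transcript is trimmed at both ends, is spliced where it has an intron, receives the letters CCA at its 3′ end and is charged with its amino acid. Mature tRNA is short, folded, heavily modified and has no poly(A) tail. The library step is named polyA depletion in the labels and poly(A) purification in the methods, and either way the values below are read from libraries not made for tRNA. They are counts of fragments assigned to tRNA genes, and fewer transcripts and fewer fragments captured per transcript cannot be told apart. Only fragments with a mapping quality above 20 were counted, so a fragment that fits several identical copies equally well was left out. For a gene with identical copies, a counted fragment thus has to reach sequence that the other copies lack, such as flanking bases or an intron. The levels below are levels of counted fragments and not amounts of mature tRNA. How much of each gene's RNA is left out was not tested.

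The sequences of 4 genes are shown because every tRNA gene that passed the test below carries 1 of them. Each is the RefSeq R64 gene from 5′ to 3′ as DNA, with any intron removed and the anticodon in capitals.
tD(GUC)O: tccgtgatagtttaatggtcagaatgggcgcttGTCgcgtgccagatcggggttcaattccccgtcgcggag
tG(GCC)D2: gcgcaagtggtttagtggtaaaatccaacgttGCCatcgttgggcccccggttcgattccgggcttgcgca
tE(UUC)K: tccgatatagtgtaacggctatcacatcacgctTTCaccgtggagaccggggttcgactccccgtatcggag
tL(CAA)C: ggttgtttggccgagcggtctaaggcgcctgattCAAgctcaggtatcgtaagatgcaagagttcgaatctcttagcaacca
The aspartate sequence, 72 bases long, is shared by 15 genes including tD(GUC)I1. The glycine sequence, 71 bases long, is shared by 16 genes including tG(GCC)G1, and the glutamate sequence, 72 bases long, by 13 genes including tE(UUC)G1. The leucine sequence, 82 bases long after removal of the intron, is shared by 10 genes. GTTCNANNC, the core of the B box, was searched on both strands. It matched in 270 of 275 nuclear genes (98.2%) and in 23 of 24 mitochondrial genes. Of 6001 windows of 74 bases before protein-coding genes, 129 matched (2.15%). This is a match of sequence only, and in the mitochondrial genes it is not read as a Pol III promoter.

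In R64 coordinates, tD(GUC)O lies at chrXV:571958-572029 on the plus strand, 152 bases from the 3′ end of YOR131C. tE(UUC)K lies at chrXI:141018-141089 on the minus strand, between MCD4, a gene of GPI anchor synthesis, and PIR1, a cell wall protein gene. tL(CAA)C lies at chrIII:90859-90972 on the plus strand in 2 exons, 351 bases from the marker gene LEU2 in the reference genome. A numbered copy such as tG(GCC)D2, tD(GUC)I1 or tG(GCC)G1 could be placed only to 2 candidate loci on its chromosome. No placed nuclear tRNA gene, of 154, overlapped another annotated gene.

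tRNA genes were read at low levels. Values are TPM, which divide a gene's fragments by its length and scale each sample to the same total. Levels of different tRNA genes are set side by side below as counted, since the loss of fragments that fit several identical copies may differ from gene to gene. On a gene of 73 bases, 1 fragment was worth 0.597 to 0.676 TPM, depending on the sample. The whole fragments behind the TPM were recovered from the tables, and each sample had between 16967873 and 18867894 of them over all genes. Over the 24 samples the median nuclear tRNA gene had a mean of 1.88 fragments and 1.16 TPM. Of the 299 genes, 41 had a mean of at least 10 fragments, 76 had a mean above 0 but under 1 fragment, and 78 were above 0 in every sample. The 8 highest genes held 31.2% of all tRNA fragments and the 40 highest held 69.9%.

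**Figure D1:**
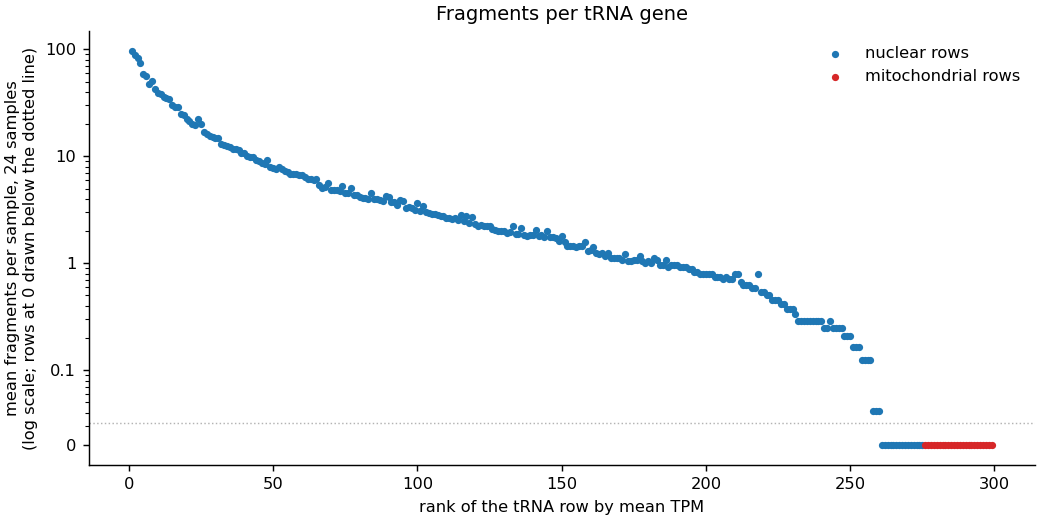
Mean fragments per sample (log scale) of each of the 299 tRNA genes over 24 samples, ranked by mean TPM, with nuclear genes in blue and mitochondrial genes in red. The highest gene has 96.6 fragments per sample, and the 39 genes at 0, drawn below the dotted line, include all 24 mitochondrial ones.

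A total of 39 tRNA genes (13.0%) were listed at 0 in all 24 samples. They comprised all 24 mitochondrial tRNA genes and 15 of 275 nuclear ones (5.45%). Of the 6827 other genes, 241 (3.53%) were at 0 in every sample. Another 3 tRNA genes had only 1 or 2 fragments over all samples, so 42 had fewer than 3. Within a single set, 42 genes were at 0 in all 12 phosphomutant set samples and 41 in all 12 deletion set samples. A count of 0 allows up to 3 fragments over the samples, for counting error only, so these genes were not detected in these libraries. Whether depth, the library step or the loss of fragments that fit several copies underlies a 0 was not tested.

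The mitochondrial zeros were shared with the rest of that genome. Of 31 other mitochondrial genes in the tables, 17 were also at 0 in all samples, and the highest mean was 0.126 TPM. The 11 messenger and ribosomal RNAs of the mitochondrion summed to between 0.0141 and 1.82 TPM in a sample. No gene of the mitochondrial genome was therefore tested.

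The 15 nuclear genes at 0 came from several families. They included 4 of 11 arginine UCU genes (tR(UCU)D, tR(UCU)G2, tR(UCU)J1 and tR(UCU)J2), 2 of 14 lysine CUU genes, 2 of 10 proline UGG genes, 2 of 10 methionine CAU genes and 2 of 4 threonine UGU genes. The other 3 were tE(CUC)D, tG(UCC)N and tI(AAU)N2. All 16 aspartate GUC genes, 16 glycine GCC genes, 14 glutamate UUC genes and 14 valine AAC genes were above 0 somewhere.

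Levels were spread widely among copies with the same sequence. These shares are of the fragments that could be assigned to a single copy. In 24 families of at least 5 identical genes, which hold 223 genes, the highest copy held between 26.4% and 73.3% of the family's summed TPM (median 44.5%). In 12 of the 24 families the highest copy was more than 10 times the median copy. The largest ratio was 38.9, for tE(UUC)G1 at 52.6 TPM against a median copy at 1.35 TPM. tF(GAA)P1, with 55.9 TPM, held 73.3% of the sum of 8 identical phenylalanine genes, and tD(GUC)O, with 61.8 TPM, held 60.2% of the sum of 15 aspartate genes.

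Median levels were not ordered by the number of identical copies. The median level was 0.940 TPM for 17 genes with a unique sequence, 1.15 TPM for 48 genes with 2 to 5 copies, 1.43 TPM for 86 genes with 6 to 10 copies and 1.14 TPM for 117 genes with 11 or more. Genes at 0 numbered 1, 5, 0 and 7 in these classes, and 7 genes could not be placed in a class. The median of 60 genes with an intron was 1.49 TPM, and that of 213 without was 1.14 TPM. These are descriptions of genes in 1 set of libraries and carry no test.

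Position was described for the 154 nuclear genes matched to a single locus. For 27 of them the 3′ end of a neighbouring gene faced the tRNA gene within 200 bases, and their median level was 1.95 TPM, against 1.16 TPM for the other 127. Genes within 500 bases of a Ty element or a long terminal repeat had a median of 1.18 TPM (98 genes), against 1.51 TPM for the other 56. Across 150 genes with a measured neighbour, the tRNA level and the level of the nearest gene had a Spearman rho of 0.0215. These genes share libraries and are not replicates.

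The highest tRNA genes were tD(GUC)O (61.8 TPM), tF(GAA)P1 (55.9 TPM), tE(UUC)G1 (52.6 TPM), tK(UUU)P (46.9 TPM), tK(UUU)D (37.5 TPM), tG(GCC)D2 (36.2 TPM), tV(AAC)O (29.6 TPM) and tL(CAA)L (28.4 TPM), as means over 24 samples of 2 tables scaled separately. tV(AAC)O was the only one of these 8 with a sequence found in no other gene. By anticodon, the sums were highest for aspartate GUC (127 TPM over 16 genes), lysine UUU (113 TPM over 7 genes), valine AAC (113 TPM over 14 genes), glutamate UUC (108 TPM over 14 genes) and glycine GCC (95.2 TPM over 16 genes). The lowest sums were glutamate CUC (0.186 TPM over 2 genes) and glutamine CUG (0.187 TPM, 1 gene). Of 41 nuclear anticodons, none had all its genes at 0.

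The sum over all tRNA genes was compared between groups next. In the phosphomutant set it was 1080 ± 86.3 TPM in yhp1-13A, 960 ± 119 TPM in yox1-9A, 1012 ± 150 TPM in yhp1-13A yox1-9A and 1058 ± 102 TPM in WT_A (SD, n = 3 each). The 4 groups overlapped, and the ratios of the mutant means to WT_A were 1.02, 0.907 and 0.956. In the deletion set it was 961 ± 138 TPM in yhp1Δ, 1524 ± 242 TPM in yox1Δ, 1263 ± 109 TPM in yhp1Δ yox1Δ and 1062 ± 51.4 TPM in WT_B (SD, n = 3 each).

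The 3 yox1Δ samples had 1767, 1521 and 1283 TPM, against 1080, 1102 and 1004 TPM in WT_B. The 3 yhp1Δ yox1Δ samples had 1283, 1360 and 1145 TPM. Both groups lay wholly above WT_B, with ratios of means of 1.43 and 1.19. By the labels, yox1Δ is the only group of this set without the LEU2 marker. Loss of YOX1 and absence of the marker cannot be told apart in yox1Δ against WT_B, here and for the single genes below. The yhp1Δ samples had 985, 1084 and 812 TPM and overlapped WT_B, with a ratio of 0.905. The yox1Δ samples differed among themselves: replicate 1 was the highest and also stood apart in the first component of the residuals, with a loading of -0.54 against -0.23 to 0.44 in the other 11 samples of the set. Without the 6 genes called below, the ratio was 1.30 for yox1Δ and 1.12 for yhp1Δ yox1Δ. With 3 samples against 3, an exact two-sided permutation test cannot go below p = 0.1, and the sum was given no test.

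**Figure D2:**
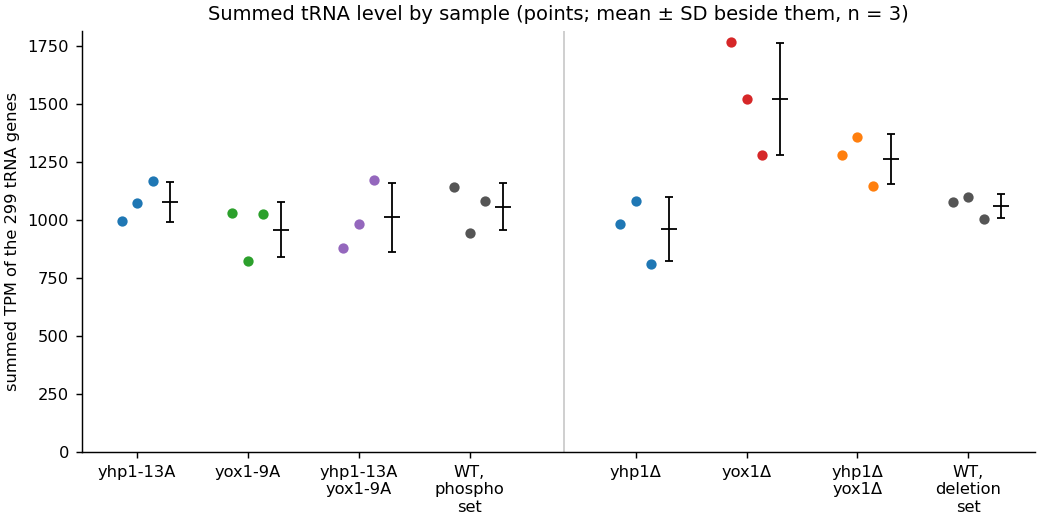
Summed TPM of the 299 tRNA genes in each of the 24 samples, by group, with the mean ± SD (n = 3) beside the points and the phosphomutant set left of the line. All yox1Δ samples (1283 to 1767) and all yhp1Δ yox1Δ samples (1145 to 1360) lie above the WT_B samples (1004 to 1102), and the phosphomutant set groups overlap.

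Single genes were tested with limma on log2(TPM + 1) over all genes with a mean of at least 1 TPM in the set, and a gene was called at a Benjamini-Hochberg adjusted p below 0.1 over all tested genes. Fold changes are on this scale, which understates the change of low genes. Of the 299 tRNA genes, 146 passed the filter among the phosphomutants with WT_A and 150 among the deletions with WT_B, and most of these (107 and 106) had under 10 fragments on average. The median standard error of a tRNA log2 fold change was 0.41 and 0.39 in these sets, against 0.19 and 0.15 over all genes tested.

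In the phosphomutant set, no tRNA gene passed the test. With yhp1-13A against WT_A, 0 of 146 tRNA genes were called, as were 0% of all 6316 genes tested. At an unadjusted p below 0.05, 3 tRNA genes were higher (2.05%; 0.174% of all genes) and 1 was lower (0.685%; 0.887% of all genes). The median log2 fold change was 0.05 over the tRNA genes and -0.11 over all genes. Limma-voom on the recovered fragments also called 0.

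With yox1-9A against WT_A, 0 of 146 tRNA genes were called, against 0.285% of all genes. At the unadjusted threshold 2 were higher (0.871% of all genes) and 9 were lower (6.16%; 2.94% of all genes), and the median was -0.10, against -0.08 over all genes. The 9 lower genes included tL(CAA)C, tF(GAA)M, tW(CCA)P and tL(UAG)L1. Limma-voom again called 0. With the replicate number as a block, which paired these samples, tL(CAA)C was called (log2 fold change -1.38, adjusted p = 0.0997 in limma). Without yox1-9A replicate 1 limma called tF(GAA)M and tW(CCA)P (adjusted p = 0.0441 and 0.0979), and without yox1-9A replicate 3 it called tL(UAA)L (adjusted p = 0.0161).

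With yhp1-13A yox1-9A against WT_A, 0 of 146 tRNA genes were called by limma or by limma-voom, against 0.0158% of all genes in limma. At the unadjusted threshold 2 were higher (0.427% of all genes) and 8 were lower (5.48%; 2.22% of all genes). The median was -0.00, against -0.12 over all genes. For the interaction of both mutations, the departure of the double mutant from the sum of the single mutants, 0 tRNA genes were called by limma and by limma-voom (0.0317% of all genes in limma). There 3 were higher (1.33% of all genes) and 5 were lower (0.412% of all genes) at the unadjusted threshold.

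The 4 largest falls in yhp1-13A yox1-9A were taken among genes that averaged at least 10 fragments in the set and had all 3 mutant samples below all WT_A samples, and none of them passed the test. No gene of that depth had all its mutant samples above WT_A. tN(GUU)P, an asparagine gene, had 11.90, 10.01 and 17.41 TPM in yhp1-13A yox1-9A, against 27.7, 27.1 and 24.1 TPM in WT_A (log2 fold change -0.98, SE 0.27, adjusted p = 0.79 in limma). tH(GUG)E1, a histidine gene, had 7.08, 7.26 and 3.31 TPM in the double mutant, against 19.8, 14.8 and 8.02 TPM in WT_A (-1.12, SE 0.46, adjusted p = 0.83). tE(UUC)C had 5.80, 3.63 and 3.31 TPM, against 15.2, 8.04 and 8.02 TPM in WT_A (-1.09, SE 0.35, adjusted p = 0.83). tF(GAA)H1 had 4.45, 4.18 and 4.58 TPM, against 10.4, 6.10 and 8.57 TPM in WT_A (-0.77, SE 0.29, adjusted p = 0.83). The lack of overlap in these 4 genes follows from the rule that chose them, and their values vary within a group. The share of all genes without overlap in this comparison was not computed.

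The lysine genes tK(UUU)P and tK(UUU)D varied widely within the groups of the phosphomutant set. tK(UUU)P had 16.6, 78.2 and 60.6 TPM in yhp1-13A, 21.6, 15.8 and 69.5 TPM in yox1-9A, 15.2, 62.6 and 90.2 TPM in yhp1-13A yox1-9A and 26.1, 10.4 and 69.2 TPM in WT_A. tK(UUU)D had 14.6 to 36.5 TPM in the samples where tK(UUU)P was low and 41.2 to 61.4 TPM where it was high. The high samples were those with a positive loading on the first component of the residuals over all genes, which held 63.3% of the residual variance of this set. tE(UUC)G1 went the other way, with 49.3 to 81.0 TPM in the samples of negative loading and 26.4 to 38.8 TPM in those of positive loading. What separates these samples is not given by the labels, and its part in the tRNA levels was not tested beyond the alternative with a term for its sign. That term, added after the data were seen, gave 1 call for yox1-9A (tL(CAA)C) and 1 for yhp1-13A yox1-9A (tD(GUC)D, log2 fold change -0.91, adjusted p = 0.0756 in limma).

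In the deletion set, yhp1Δ had no called tRNA gene. Limma called 0 of 150 in yhp1Δ against WT_B, as did limma-voom, against 0.127% of all 6311 genes in limma. At the unadjusted threshold 1 was higher (0.570% of all genes) and 13 were lower (8.67%; 0.634% of all genes). The median log2 fold change was -0.13, against 0.01 over all genes, and 94 of the 299 tRNA genes had a higher mean TPM in yhp1Δ, 157 a lower one and 48 the same. Of the other genes, 3627 were higher, 2919 lower and 281 the same. The replicate numbers paired these samples, and with the replicate block limma called tM(CAU)M, a methionine gene (log2 fold change -1.68, adjusted p = 0.0846). The pairing was seen over all genes, and over the tRNA genes alone the same-numbered samples correlated at only 0.086, 0.066 and -0.056. Without yhp1Δ replicate 1, tR(ACG)E was called instead (adjusted p = 0.0468).

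In yox1Δ, 5 of 150 tested tRNA genes were called (3.33%), 4 higher and 1 lower, against 0.364% of all genes. At the unadjusted threshold 23 were higher (15.3%; 2.58% of all genes) and 2 were lower (1.33%; 1.44% of all genes). All 3 yox1Δ samples were above all WT_B samples for 24 tRNA genes (16.0%; 3.15% of all genes) and below them for 3 (2.00%; 2.69% of all genes). The median was 0.25, against -0.04 over all genes, and 173 of the 299 genes had a higher mean TPM in yox1Δ, 81 a lower one and 45 the same. For the 6827 other genes, the counts were 2673 higher, 3873 lower and 281 the same.

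tD(GUC)O, the highest tRNA gene, had 149, 117 and 104 TPM in yox1Δ, against 53.7, 45.2 and 44.4 TPM in WT_B. It rose by 1.34 on the log2 scale (SE 0.18, adjusted p = 0.0054 in limma). Every yox1Δ sample was above every other sample of either set, since none of the rest exceeded 77.4 TPM. In yhp1Δ yox1Δ it had 65.7, 77.4 and 69.3 TPM, all above WT_B, and was not called (0.56, adjusted p = 0.68 in limma).

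tG(GCC)D2 had 87.0, 82.6 and 72.2 TPM in yox1Δ, against 24.6, 29.2 and 35.2 TPM in WT_B (1.42, SE 0.20, adjusted p = 0.0075 in limma). In yhp1Δ yox1Δ its levels of 64.7, 45.8 and 48.3 TPM lay between those of yox1Δ and WT_B (0.81, SE 0.20, adjusted p = 0.22). In yox1-9A it had 13.2, 15.5 and 19.4 TPM, against 27.5, 18.2 and 24.4 TPM in WT_A, and the 2 groups overlapped.

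tE(UUC)K was the only tRNA gene called in both yox1Δ and yhp1Δ yox1Δ. The yox1Δ samples had 43.8, 46.9 and 28.5 TPM. The yhp1Δ yox1Δ samples had 36.9, 32.8 and 34.7 TPM, and the WT_B samples 9.59, 13.1 and 13.4 TPM. The log2 fold changes were 1.63 (SE 0.24, adjusted p = 0.0085 in limma) and 1.47 (SE 0.24, adjusted p = 0.016 in limma), and both comparisons use the same WT_B samples. yhp1Δ, at 8.25, 16.3 and 9.33 TPM, overlapped WT_B. The call in yhp1Δ yox1Δ was lost without its own replicate 1 (1.43, adjusted p = 0.101).

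tD(GUC)I1, a copy identical to tD(GUC)O in sequence, had 17.3, 9.77 and 9.06 TPM in yox1Δ, against 2.56, 3.27 and 4.26 TPM in WT_B (1.54, SE 0.24, adjusted p = 0.015 in limma). These levels rest on 57 fragments in the 3 yox1Δ samples and 16 in the 3 WT_B samples. In WT_A the same gene ranged from 0.618 to 10.6 TPM. The 4 genes that rose in yox1Δ stayed called in each of 12 fits that left out 1 sample of the set.

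tL(CAA)C was the gene that fell. It was at 0 in all 3 yox1Δ samples, against 3.37, 2.30 and 3.74 TPM in WT_B. That is 0 fragments against 17 over the group (adjusted p = 0.038 in limma). It is at least 5.67-fold lower in yox1Δ if 3 fragments over the group are the floor and the 17 are taken as exact. It was also at 0 in all 3 yox1-9A samples, with 0 fragments against 9 in WT_A, and was not called there (adjusted p = 0.111 in limma). By the same floor, with the 9 taken as exact, that is at least 3-fold lower. Counting error of the wild type fragments is not covered by these bounds. In every other group it was above 0 in all samples, with 0.565 to 4.89 TPM.

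LEU2, the nearest gene in the reference genome, was low in the same 2 strains. It had 0, 0 and 0.128 TPM in yox1Δ, against 120, 125 and 134 TPM in WT_B, and 0.0451, 0.0438 and 0.0433 TPM in yox1-9A, against 88.1, 76.6 and 107 TPM in WT_A. The labels give leu2Δ0 for all strains and a LEU2 marker for all but yox1-9A and yox1Δ. In yhp1Δ and yhp1Δ yox1Δ LEU2 had 54.6 to 59.95 TPM. tL(CAA)C was thus at 0 in the strains without the marker. It was above 0 in every sample with it, among them yhp1Δ yox1Δ, which also lacks YOX1. Whether the absence of the marker underlies the change in tL(CAA)C was not tested. The call was lost without WT_B replicate 1 (adjusted p = 0.171), without WT_B replicate 3 (adjusted p = 0.240) and without yox1Δ replicate 1, 2 or 3 (adjusted p = 0.126, 0.126 and 0.139 in limma).

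**Figure D3:**
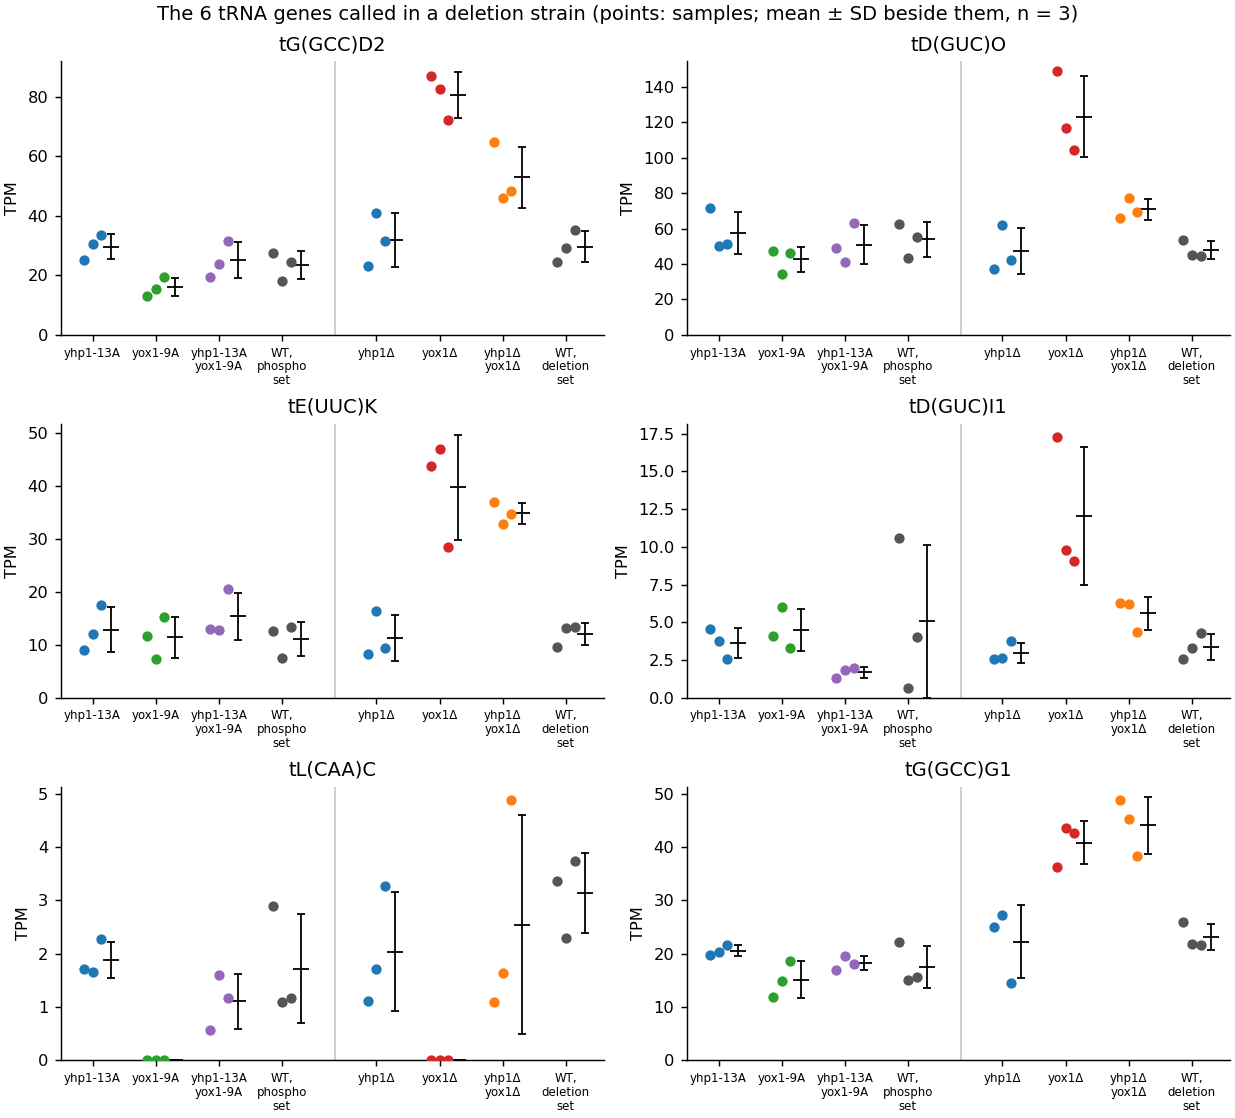
TPM of the 6 tRNA genes called in a deletion strain, in each of the 24 samples (points) with the mean ± SD (n = 3) beside them; the phosphomutant set is left of the line in each panel and each wild type is at the right of its set. tD(GUC)O, tG(GCC)D2, tE(UUC)K and tD(GUC)I1 are higher in all yox1Δ samples than in all WT_B samples, and tL(CAA)C is at 0 in the 3 yox1Δ and the 3 yox1-9A samples.

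In yhp1Δ yox1Δ, 2 of 150 tested tRNA genes were called (1.33%), both higher, against 0.634% of all genes. At the unadjusted threshold 14 were higher (9.33%; 2.17% of all genes) and 2 were lower (1.33%; 1.54% of all genes). All 3 double mutant samples were above all WT_B samples for 18 tRNA genes (12%; 4.80% of all genes) and below them for 5 (3.33%; 4.41% of all genes). The median log2 fold change was 0.15, against 0.03 over all genes, and 139 of 299 tRNA genes had a higher mean, 109 a lower one and 51 the same. Of those that differed, 56.0% of tRNA genes and 54.3% of the other genes were higher, so this split was near that of the other genes (3552 higher, 2995 lower and 280 the same).

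tG(GCC)G1 was the second gene called there. It had 48.9, 45.2 and 38.3 TPM in yhp1Δ yox1Δ, against 25.9, 21.9 and 21.6 TPM in WT_B (0.90, SE 0.20, adjusted p = 0.097 in limma). In yox1Δ it had 36.3, 43.6 and 42.7 TPM, also all above WT_B, and was not called (0.79, adjusted p = 0.22). This call was near the threshold. It was lost in 9 of 12 fits that left out a sample, namely each WT_B sample, yhp1Δ replicate 1, yox1Δ replicates 2 and 3, and each yhp1Δ yox1Δ sample (adjusted p up to 0.480 in limma).

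By the same rule for yhp1Δ yox1Δ, tG(GCC)O1 was the fourth largest rise, with 7.62, 9.42 and 6.90 TPM, against 3.89, 5.31 and 3.70 TPM in WT_B (0.76, adjusted p = 0.98 in limma). tP(AGG)C, a proline gene and the only fall by that rule, had 5.01, 5.57 and 3.10 TPM, against 7.03, 7.20 and 8.52 TPM in WT_B (-0.65, adjusted p = 0.98 in limma). The interaction of both deletions called 0 tRNA genes in limma and in limma-voom (0.190% of all genes in limma), with 7 higher (3.25% of all genes) and 4 lower (3.26% of all genes) at the unadjusted threshold. The difference between the yox1Δ and yhp1Δ yox1Δ levels of a gene was not tested directly.

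**Figure D4:**
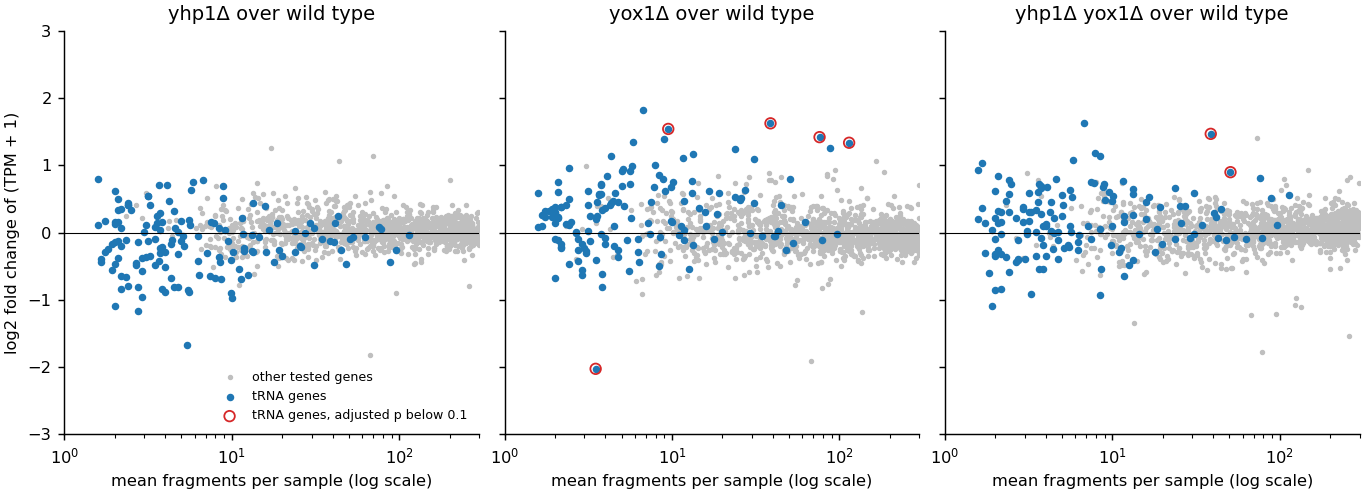
Log2 fold change of (TPM + 1) over WT_B in yhp1Δ, yox1Δ and yhp1Δ yox1Δ against mean fragments per sample (log scale), for tested genes with up to 300 fragments and changes within 3 either way; tRNA genes in blue, called ones circled, other genes in grey. In yox1Δ the 4 called genes that rose lie between 1.34 and 1.63, and most tRNA genes have under 10 fragments, where the spread is wide.

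The called genes belong to 4 families, and the other copies of each were described. The families were chosen because they hold a called gene, so counts and sums over a whole family include genes chosen by their values. The summed level of the 16 aspartate GUC genes was 208 ± 50.3 TPM in yox1Δ, against 108 ± 9.10 TPM in WT_B (SD, n = 3 each), a ratio of 1.92. Without the 2 called genes the ratio was 1.27. In yox1Δ, 11 of the 16 genes had a higher mean and 5 a lower one. Of all tRNA genes whose mean differed, 68.1% were higher in yox1Δ, against 40.8% of the other genes. In yhp1Δ yox1Δ the sum was 140 ± 12.8 TPM, a ratio of 1.29.

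The 16 glycine GCC genes summed to 182 ± 11.8 TPM in yox1Δ, against 83.7 ± 4.69 TPM in WT_B, a ratio of 2.17, and to 141 ± 18.2 TPM in yhp1Δ yox1Δ, a ratio of 1.68. Without the gene called in each comparison the ratios were 1.88 and 1.60. Of 11 tested genes, 5 were higher at the unadjusted threshold in yox1Δ (2.58% of all genes) and 3 in yhp1Δ yox1Δ (2.17%). None was lower (1.44% and 1.54% of all genes). The called gene of each comparison is among the higher ones.

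The 14 glutamate UUC genes added up to 203 ± 85.0 TPM in yox1Δ, against 74.5 ± 6.85 TPM in WT_B, a ratio of 2.72, which was 2.61 without tE(UUC)K. In yhp1Δ yox1Δ the sum was 125 ± 10.06 TPM, a ratio of 1.68, which was 1.45 without tE(UUC)K. Of the 14 genes, 13 had a higher mean in yox1Δ, beside 68.1% of all tRNA genes whose mean differed. The yox1Δ samples had 297, 179 and 132 TPM, and much of the spread came from tE(UUC)G1, with 194, 69.0 and 52.4 TPM, against 42.2, 34.7 and 33.5 TPM in WT_B (1.26, SE 0.36, adjusted p = 0.46 in limma). yox1Δ replicate 1 was thus the highest sample here as in the sum over all tRNA genes.

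The 10 leucine CAA genes summed to 49.8 ± 13.4 TPM in yox1Δ. In the double deletion the sum was 51.8 ± 4.75 TPM, and in WT_B it was 52.7 ± 2.67 TPM. Their highest member, tL(CAA)L, had 33.1, 23.5 and 26.7 TPM in yox1Δ, against 29.8, 33.9 and 28.3 TPM in WT_B.

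**Figure D5:**
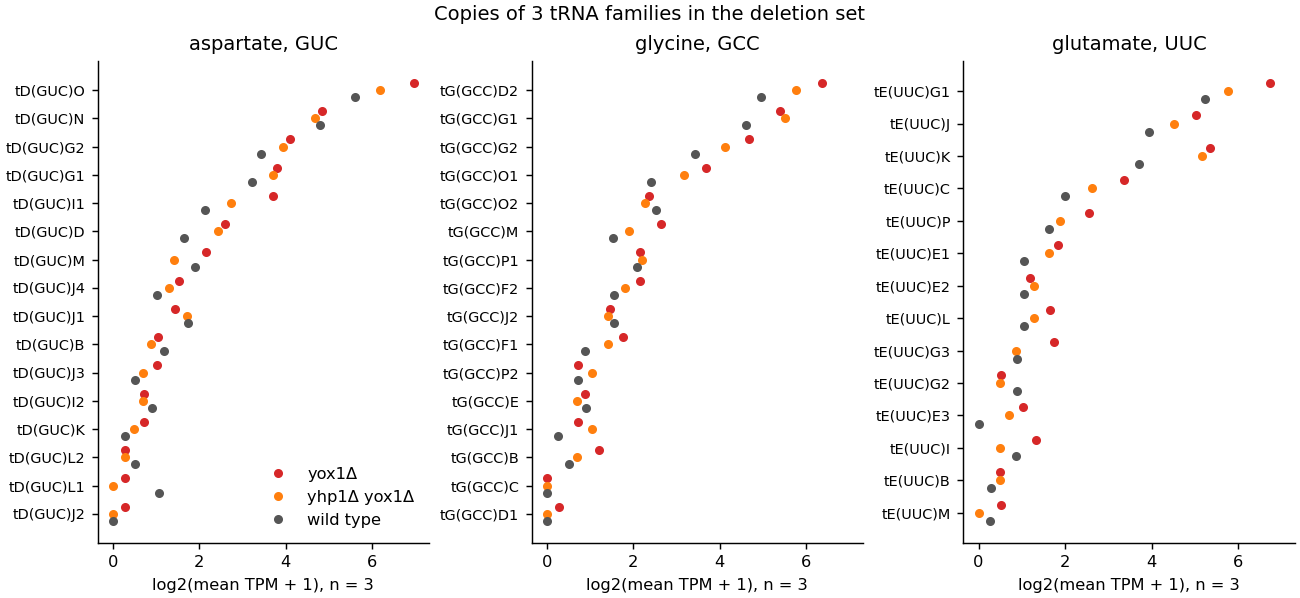
Levels of every copy of the aspartate GUC, glycine GCC and glutamate UUC genes in the deletion set, as log2(mean TPM + 1) over 3 samples, with yox1Δ above yhp1Δ yox1Δ and WT_B in each row. In the glutamate family 13 of 14 copies have a higher mean in yox1Δ than in WT_B, and in the aspartate family 11 of 16. Of all tRNA genes whose mean differs, 68.1% are higher in yox1Δ.

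By amino acid, the summed level was above that of WT_B for 17 of 20 amino acids in yox1Δ (ratios 0.952 to 2.73) and for 16 of 20 in yhp1Δ yox1Δ (ratios 0.869 to 1.69). In yhp1Δ it was above for 3 of 20 (ratios 0.496 to 1.09). All 3 yox1Δ samples lay above all WT_B samples for 7 of 20 amino acids: glutamate, glycine, aspartate, cysteine, histidine, asparagine and lysine. Among single genes, 3.15% of all tested lay wholly above WT_B in yox1Δ, but most of these sums hold many genes. Lysine had 182 ± 4.65 TPM in yox1Δ and 150 ± 13.3 TPM in WT_B, and histidine had 69.5 ± 16.2 TPM in yox1Δ and 48.4 ± 3.72 TPM in WT_B. Leucine (77.01 TPM in yox1Δ, 80.9 TPM in WT_B), valine (130 and 135 TPM) and methionine (15.3 and 15.4 TPM) were the 3 with a ratio under 1.

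For yhp1Δ yox1Δ the 7 amino acids wholly above WT_B were glutamate, glycine, aspartate, cysteine, asparagine, isoleucine and glutamine. The share of all single genes wholly above WT_B was 4.80% there. In yhp1Δ, where no share over all genes was computed, 4 of 20 amino acids lay wholly below WT_B. These were methionine (7.62 ± 1.88 TPM in yhp1Δ, 15.4 ± 4.15 TPM in WT_B), glutamine, valine and phenylalanine. In the phosphomutant set, isoleucine was wholly below WT_A in yox1-9A (15.3 ± 3.26 TPM, against 22.4 ± 1.66 TPM in WT_A) and in yhp1-13A yox1-9A (15.9 ± 0.25 TPM), and asparagine in the double mutant alone. In the phosphomutant set that is 1 of 20 amino acids in yox1-9A and 2 of 20 in yhp1-13A yox1-9A. No share over all genes was computed for yhp1Δ or in the phosphomutant set, so none of these counts is read as a result about the amino acids. Comparisons within a set share their wild type samples, and no test was made of the sums.

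Genes next to the called tRNA genes were compared to see whether the reads at a locus moved together. YOR131C, beside tD(GUC)O, averaged 53.2 ± 13.95 TPM in yox1Δ and 59.0 ± 15.04 TPM in WT_B (SD over 3 samples). Its log2 fold change was -0.14, against 1.34 for the tRNA gene. MCD4 and PIR1, on either side of tE(UUC)K, had log2 fold changes of 0.09 and 0.16 in yox1Δ and of -0.03 and -0.20 in yhp1Δ yox1Δ. At the candidate loci of tG(GCC)D2, tD(GUC)I1 and tG(GCC)G1, no tested neighbour was called in a deletion strain. Between 0.127% and 0.634% of all genes were called in these strains, so this is near the background and not a result about the loci. The widest of these neighbours was BAR1, a secreted protease gene of MATa cells, at -0.51 in yhp1Δ yox1Δ (adjusted p = 0.37 in limma). LEU2 was the only called gene among these reference neighbours. The strains are leu2Δ0 and carry LEU2 only as a marker of the altered or tagged YHP1. Its reads are therefore not taken as reads at the locus of tL(CAA)C.

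The Pol III machinery and the enzymes of tRNA maturation were compared through lists of genes. None of 17 Pol III subunits, 9 TFIIIB and TFIIIC subunits, 4 genes of the Maf1 repressor and its regulators, 13 tRNA end processing genes, 10 splicing and export genes and 20 cytosolic aminoacyl-tRNA synthetases was called in any of the 6 comparisons. Between 0% and 0.634% of all genes were called in these comparisons, so a count of 0 in lists of this size is near the background and is not a result about the lists. In yox1Δ their medians were -0.18, -0.13, 0.05, -0.15, -0.10 and 0.02 in this order of lists, against -0.04 over all genes. In yhp1Δ yox1Δ the medians were 0.02, 0.14, -0.08, 0.11, 0.01 and -0.06, against 0.03 over all genes. The widest members in yhp1Δ yox1Δ were BDP1, a TFIIIB subunit (0.31), and RPR2, an RNase P protein (0.43), both with an adjusted p of 0.98 in limma.

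Other RNAs made by Pol III or lacking a poly(A) tail were read from the same libraries. The 6 other Pol III transcripts that were matched (among them SNR6, the U6 RNA, SCR1, the signal recognition particle RNA, and RPR1, the RNase P RNA) summed to 48.5 ± 3.96 TPM in yhp1Δ, 41.5 ± 6.40 TPM in yox1Δ, 31.3 ± 4.86 TPM in the double deletion and 32.4 ± 6.57 TPM in WT_B. All yhp1Δ samples (45.1 to 52.8 TPM) lay above all WT_B samples. The yox1Δ range of 36.6 to 48.7 TPM overlapped the WT_B range of 26.8 to 39.6 TPM. The 18 structured RNAs without a tail summed to 151 ± 13.7 TPM in yhp1Δ, 129 ± 10.7 TPM in yox1Δ, 118 ± 3.22 TPM in the double deletion and 132 ± 11.6 TPM in WT_B. In the phosphomutant set the 6 Pol III transcripts summed to 110 ± 46.1 TPM in yox1-9A and 91.9 ± 36.4 TPM in yhp1-13A yox1-9A, against 43.2 ± 14.01 TPM in WT_A. Most of that came from the 5S ribosomal RNA gene RDN5-1, with 128, 44.8 and 72.1 TPM in yox1-9A, against 22.8, 8.83 and 17.1 TPM in WT_A (2.23, SE 0.58, adjusted p = 0.37 in limma). No member of either list was called, which for 5 to 13 tested members is also near that background.

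The strain labels were checked against the altered genes. YHP1 had 0 TPM in all 3 yhp1Δ samples and at most 0.0424 TPM in yhp1Δ yox1Δ, against 30.8 to 37.2 TPM in WT_B. YOX1 had 0.563 to 0.998 TPM in yox1Δ. In the double deletion it had 1.39 to 1.81 TPM, against 85.9 to 108 TPM in WT_B. In yhp1-13A and yhp1Δ, where YOX1 carries no tag, it had 34.01 to 38.4 TPM and 38.6 to 48.7 TPM, below both wild types. Of the 6 MATa genes listed, MFA2 (3487 to 9214 TPM), MFA1 (2113 to 4114 TPM) and STE2 (559 to 866 TPM) were the highest. BAR1 had 74.7 to 182 TPM and STE6 had 68.1 to 107 TPM. ASG7, at 13.0 to 26.4 TPM, was no higher than the MATα gene SAG1. Of the MATα genes, MF(ALPHA)1 had at most 2.44 TPM, STE3 at most 4.22 TPM, MF(ALPHA)2 6.66 to 16.9 TPM and SAG1 17.0 to 26.8 TPM.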

How the data were processed

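RNA-seq was made of 24 yeast samples, and the authors deposited 2 tables of TPM values with gene lengths in bases. Per the methods, paired-end reads were aligned to R64-1-1 with STAR 2.5.3a, and exon fragments of mapping quality above 20 were counted per gene with featureCounts 1.5.2; the counting strand and the step from counts to TPM are not given in the sources used here. No sample column (0) was left unused. TPM times length fell on whole multiples of 1 step per sample (within 0.01 of a whole fragment) for 100% of values, which gave fragments per gene. Depth was 16967873 to 18255340 fragments per sample among the phosphomutants and WT_A and 18123679 to 18867894 among the deletions and WT_B; intervals and floors (3 fragments) cover counting error only.

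Each set was fitted with limma 3.58.1 (R 4.3.3, empirical Bayes with a trend) on log2(TPM + 1) over genes whose TPM averaged 1 or more, its 4 groups together and with no block. Genes were called at an adjusted p below 0.1. The script was tested on simulated data. Alternatives were pseudocounts of 0.1 and 10, no filter, at least 10 fragments, median-of-ratios scaling, limma-voom on the fragments, a replicate block, 2-group fits, a stricter threshold and leaving out each sample. A term for the first residual component and limma-voom with the block were added after the data were seen.

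Replicate numbers come from the labels. Deviations of same-numbered samples correlated above 0.1 in all 3 pairs only for yox1-9A with WT_A (0.52 to 0.83) and for yhp1Δ with WT_B (0.48 to 0.75), and those were taken as paired. Over the tRNA genes alone the correlations were 0.12 to 0.31 for yox1-9A and -0.056 to 0.086 for yhp1Δ.

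Genes named were those called, the 8 highest, up to 4 largest non-overlapping rises and falls of at least 10 fragments in each double mutant, tE(UUC)K, the neighbours of called genes, and the 2 highest mitochondrial tRNA genes, of which there were none above 0. Genes listed at the unadjusted threshold, as lost or gained calls, or at 0 were chosen after their values were seen. Members and lists were chosen with earlier results of these data known. Of the 299 genes, 177 matched a single RefSeq R64 gene by name, chromosome and anticodon, 119 matched a group of copies and 3 matched none. Motif, sequence and position came from RefSeq R64, whose exon lengths equal those in the tables for all 177.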

Additional observations from a re-analysis of the deposited data

How the results depend on the processing

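No called gene changed direction under any alternative; the medians of the 3 phosphomutant strains, all near 0, changed sign when 1 sample was left out and under some other settings, so no direction is read from them. That of yhp1-13A yox1-9A ran from -0.0942 to 0.092 when 1 sample was left out and was 0.137 with limma-voom. In yox1Δ the call count was 5; it was 3 with at least 10 fragments, where tD(GUC)I1 and tL(CAA)C were not tested, 4 with a pseudocount of 10 or no filter, 6 with median-of-ratios scaling, 7 with the residual term and 4 to 7 when 1 sample was left out. The call of tL(CAA)C was lost with a pseudocount of 10 (adjusted p = 0.251 in limma) and with no filter (0.117). In yhp1Δ yox1Δ the count of 2 became 1 with a pseudocount of 0.1, with no filter, with at least 10 fragments, with median-of-ratios scaling, at an adjusted p below 0.05, with limma-voom and with limma-voom with the block, became 3 with 2-group fits and with the residual term (tT(AGU)I1 added), and ranged from 0 to 3 when 1 sample was left out. In yox1-9A the count of 0 became 1 with a pseudocount of 0.1, 2 with no filter and 1 with the residual term, and was 0 to 2 when 1 sample was left out; in yhp1-13A yox1-9A it became 1 with the residual term. In yhp1Δ it was 0 to 1 when 1 sample was left out. The interaction count of 0 became 1 with no filter in the phosphomutant set and 1 with a pseudocount of 0.1 in the deletion set.

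With the replicate block, limma called 1 tRNA gene in yox1-9A, 1 in yhp1-13A yox1-9A (tE(UUC)C, adjusted p = 0.0429), 1 in yhp1Δ, 7 in yox1Δ and 4 in the double deletion; it changed no call in yhp1-13A or the interactions. Where the samples were not paired they share only a number. Limma-voom with the replicate block called 1 in yox1-9A, 6 in yox1Δ, 1 in yhp1Δ yox1Δ and 1 for the interaction in the deletion set.

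The median log2 fold change of yhp1-13A, 0.05, was 0.13 with median-of-ratios scaling, 0.22 with limma-voom, 0.17 with limma-voom with the block and -0.054 to 0.115 when 1 sample was left out. That of yox1-9A ran from -0.179 to 0.0635 and turned positive without yox1-9A replicate 2. That of yox1Δ, 0.25, was 0.056 with a pseudocount of 10. That of yhp1Δ yox1Δ, 0.15, was 0.042 with a pseudocount of 10, 0 with no filter and 0.0736 to 0.202 when 1 sample was left out. Depth limits all of this: 107 of 146 and 106 of 150 tested tRNA genes had under 10 fragments.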
